A study of Mus musculus with 136 samples.

Results

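Meox1, Tcf15, Foxc1, Foxc2, Uncx, Tbx18 and Myf5 are transcription factor genes of the paraxial mesoderm and of the somites it forms. They were chosen by name and are 7 of the 47643 genes in the count table. Their RNA was measured in 66 E8.5 embryos of NOD mice, an inbred strain prone to autoimmune diabetes, out of 136 libraries in the series. A diabetic pregnancy here is one of a female of this strain with spontaneous hyperglycemia, and 33 embryos from 12 such litters were compared with 33 embryos from 10 litters of normoglycemic dams of the same strain. Maternal blood glucose at euthanasia was 423 to 595 mg/dl in the diabetic litters with a recorded number, with 1 litter without one, and 105 to 164 mg/dl in the normal litters. Each embryo was staged by its somite pairs, and the normal embryos comprised 11 with 5, 6 with 6, 7 with 7, 4 with 8 and 5 with 9 pairs. The diabetic embryos comprised 13 with 5, 4 with 6, 4 with 7, 9 with 8 and 3 with 9 pairs. All embryos of a litter share their dam, so maternal condition varies between litters and never within one, and the diabetic litter D24M15 gave 9 embryos, 7 of them among the 16 diabetic embryos with 7 to 9 pairs.

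Somites are blocks of paraxial mesoderm that bud off in pairs from the front of the presomitic mesoderm, while the tail bud adds cells behind. Each new block becomes an epithelial ball with a rostral and a caudal part, and later gives rise to the sclerotome, from which vertebrae and ribs form, and to the dermomyotome, the source of muscle and dermis. Foxc1 and Foxc2 encode related forkhead factors that specify paraxial mesoderm, and they are also used in head mesenchyme, vessels and kidney. Tcf15 (paraxis) encodes a basic helix-loop-helix factor needed for the epithelial state of somites, and Meox1 a homeobox factor of newly formed somites. Uncx is a homeobox gene of the caudal part of each somite, Tbx18 a T-box gene of the rostral part, and Myf5 the first of the muscle determination genes to be expressed.

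The genes lie at 7 separate loci of the mm10 build (GRCm38), given here with their GENCODE coordinates. Foxc1 is on chromosome 13 from 31806633 to 31812476 and Foxc2 on chromosome 8 from 121116171 to 121118895, both on the plus strand and both with 1 exon. Tcf15 spans 152143561 to 152149097 on chromosome 2 (plus strand), Uncx 139543494 to 139548179 on chromosome 5 (plus), Meox1 101877510 to 101894374 on chromosome 11 (minus), Tbx18 87702800 to 87731260 on chromosome 9 (minus) and Myf5 107482908 to 107486134 on chromosome 10 (minus). Genes annotated over Meox1, Foxc2 and Tbx18 had 7, 0 and 14 counts in all 66 embryos together.

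RefSeq promoter windows of GRCm38, from 250 bases before to 50 bases after the start of the gene, were found for 4 of the 7 genes, namely Foxc1, Uncx, Tbx18 and Myf5. They were searched on both strands for 5 motifs. The window of Tbx18, a called gene of the somite trend whose RefSeq and GENCODE starts match, is shown 5′ to 3′ on the strand of the gene, with 1 match in capitals. It lies at chr9:87731211-87731510 on the minus strand.
Tbx18: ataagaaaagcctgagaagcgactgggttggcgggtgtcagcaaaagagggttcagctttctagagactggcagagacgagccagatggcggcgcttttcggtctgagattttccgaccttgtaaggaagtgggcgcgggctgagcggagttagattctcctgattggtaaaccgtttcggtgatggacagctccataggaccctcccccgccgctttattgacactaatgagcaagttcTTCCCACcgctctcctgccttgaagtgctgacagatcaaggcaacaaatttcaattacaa
The capitals mark TTCCCAC, the reverse complement of the RBPJ motif GTGGGAA, 10 bases before the start, and this motif occurs in 6.39% of 32817 such windows. The Uncx window holds 2 copies of TAATTA, letters that homeodomain proteins often bind and that occur in 5.30% of windows. It is not shown, because the RefSeq start of Uncx behind this window lies downstream of the GENCODE start given above and the whole window falls inside the first exon of the longer GENCODE transcript. Both windows also hold 1 E box (CANNTG), as do 72.3% of all windows. The T-box motif GGTGTGA (3.98% of windows) and the forkhead motif GTAAACA (3.65%) were in neither. The windows of Foxc1 and Myf5 held none of the 5 motifs. A match is a run of letters and no evidence of binding.

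The 66 embryo libraries held 1330731 to 5658850 counts, with a median of 2277828. A count is 1 molecule tagged near its 3′ end, and normalized counts are counts divided by the size factor of the library. Tissue was checked by lists of marker genes, given as their summed CPM, counts scaled to the total of the library. The 10 visceral endoderm markers reached 40.8 to 1405 CPM in embryos against 4535 to 20459 CPM in yolk sacs, and the 10 neural markers 457 to 1277 CPM against 8.59 to 151 CPM. The diabetic embryo D24M15J, with 8 somite pairs, stood apart in its caudal genes. It had 0 counts of Tbx6, the T-box factor of presomitic mesoderm, where its 8 peers of the same condition and somite number had 11.3 to 42.6 normalized counts. It also had 0 counts of Cdx4 (peers 80.8 to 187) and lay below all peers for 8 of 12 tail bud and 8 of 14 presomitic mesoderm genes. It was below all peers as well in the lateral mesoderm genes Foxf1 (32.7, peers 88.6 to 126) and Hand1 (26.6, peers 46.9 to 133). Other genes of the intermediate and lateral mesoderm list were not compared for this embryo. Its values of the 7 somite genes lay inside the range of its peers, and the somite trend and the comparison of diabetic with normal embryos at equal somite number were also computed without it.

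The 7 genes fell into 3 levels. Foxc1 was at 149 ± 40.6 normalized counts (mean ± SD, n = 66), Tcf15 at 98.7 ± 58.7, Foxc2 at 69.8 ± 23.05 and Meox1 at 62.2 ± 22.3. Tbx18 and Uncx, each a gene of one part of the somite, were lower, at 9.56 ± 4.04 and 8.18 ± 5.83 normalized counts. Myf5 was the lowest at 0.858 ± 0.989, with 62 counts in all, found in 35 of 66 embryos. Foxc2 and Meox1, and likewise Tbx18 and Uncx, differed by less than 1 SD. No correction for transcript length was made, since a molecule gives 1 tag whatever its length, although transcripts can differ in how well their 3′ ends are captured.

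Embryos of the same condition and somite number differed in these genes by unequal amounts. The coefficient of variation within such groups was 26.9% for Foxc1, 32.5% for Meox1, 32.98% for Foxc2, 39.5% for Tbx18, 50.5% for Tcf15 and 59.4% for Uncx. Counting error at the mean count would give 9.77% for Tcf15 and 34.03% for Uncx. The highest and lowest of the 66 embryos differed 45.9-fold in Tcf15 but 4.28-fold in Foxc1. A repeat library of the same RNA, made for 2 embryos, differed from its original by -0.30 to 0.21 on the log2 scale over Meox1, Tcf15, Foxc1, Foxc2 and Tbx18, and by -0.31 and 0.21 for Uncx.

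**Figure D1:**
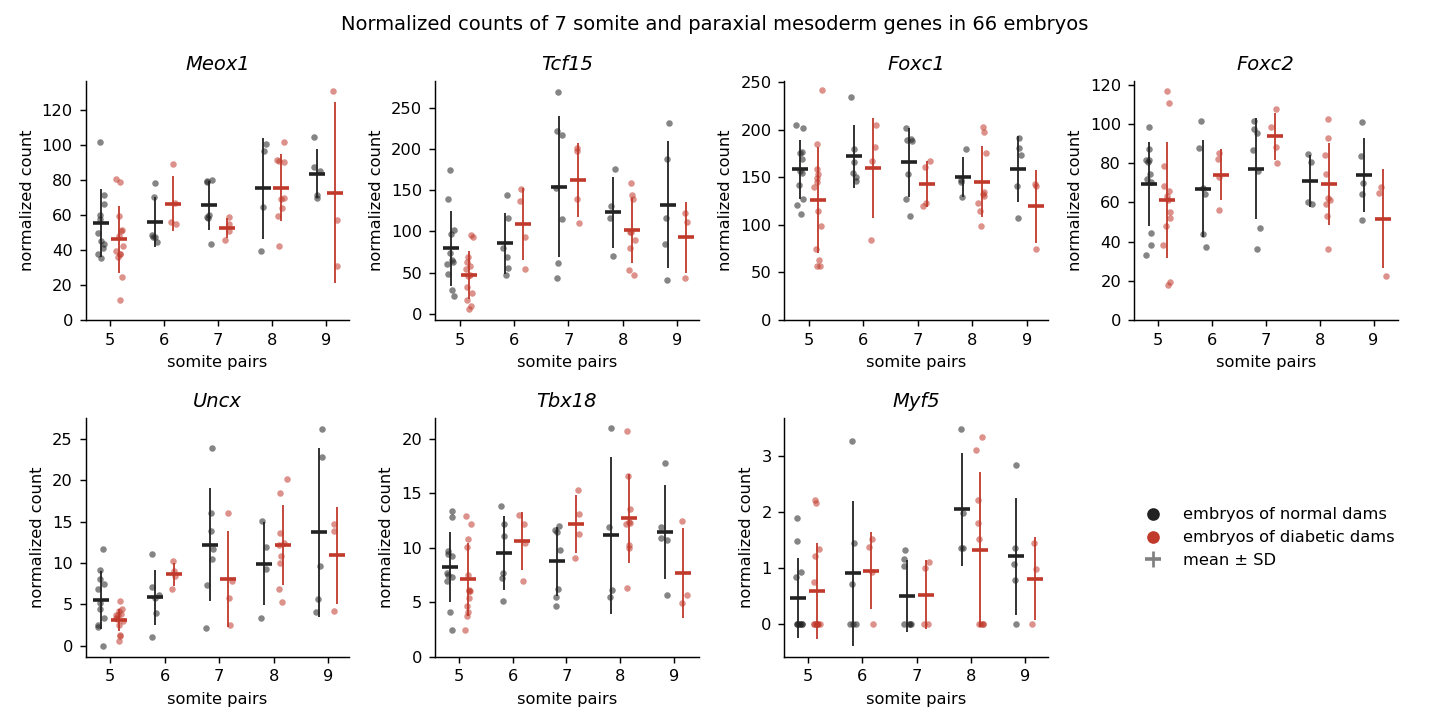
Normalized counts (y axis) of each gene in 66 embryos by somite pairs (x axis), with black points for normal and red points for diabetic pregnancies and a bar and line for the mean and SD of each group. Uncx went from a median of 3.72 at 5 pairs to 11.8 at 9 pairs, while Foxc1 stayed between medians of 135 and 166.

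Whether somite genes change as somites are added was asked with the number of somite pairs as a numeric term at equal maternal condition, by edgeR's quasi-likelihood test with Benjamini-Hochberg adjustment over 11304 genes. Uncx, Tcf15, Meox1 and Tbx18 rose with somite number, which makes 4 of the 6 members tested, while Foxc1 and Foxc2 did not pass the test and Myf5 was too low to be tested. Over all genes tested, 25.3% changed with somite number, 12.4% upwards and 12.9% downwards, and the median slope was -0.0021 against 0.16 for the 6 members. With the litter as a random block (limma) 3 of the 6 were called and with the litter as a fixed block 1, Uncx. Slopes are in log2 units per somite pair. Without the embryo D24M15J the same 4 members were called. In whole embryos, fewer cells of a type and less RNA per cell cannot be told apart.

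Among the genes of somite polarity, Uncx had the steepest slope. Its normalized counts (lowest, median and highest) were 0, 3.72 and 11.6 at 5 pairs, 1.10, 6.99 and 11.1 at 6, 2.18, 10.53 and 23.9 at 7, 3.39, 11.9 and 20.1 at 8 and 4.10, 11.8 and 26.2 at 9. All 8 embryos with 9 pairs lay above the median at 5 pairs and 4 of them above the highest embryo with 5 pairs. The slope was 0.42 (SE 0.069, adjusted p = 5.49e-06), and embryos with 9 pairs had 3.004 times the level of those with 5 (adjusted p = 0.000763), a contrast in which 6.94% of genes were called. Tbx18, the gene of the rostral part, had medians of 7.37, 10.8, 11.2, 12.2 and 10.8 normalized counts from 5 to 9 pairs, within a range of 2.48 to 20.99, and the groups overlapped at every somite number. Its slope of 0.14 (SE 0.050, adjusted p = 0.0255) was less firm, with adjusted p = 0.108 with the litter as a random block (slope 0.12), 0.0658 without a filter on low counts and 0.0722 without the litter N28M05 (slope 0.13).

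Tcf15, the gene of the epithelial somite, rose from lowest, median and highest values of 5.87, 59.3 and 175 normalized counts at 5 pairs to 41.3, 114 and 231 at 9 pairs. Its highest median, 152, was at 7 pairs, where 5 of 11 embryos exceeded every embryo with 5 pairs. The slope of Tcf15 was 0.26 (SE 0.071, adjusted p = 0.00409). Meox1 went from 11.7, 46.7 and 102 normalized counts at 5 pairs through medians of 55.4, 58.8 and 70.0 at 6, 7 and 8 pairs to 30.99, 78.3 and 131 at 9. Its slope was 0.17 (SE 0.039, adjusted p = 0.000601), and the level at 9 pairs was 1.58 times that at 5 (adjusted p = 0.019). For Tcf15 that ratio was 1.83 (adjusted p = 0.0561), and for both genes most embryos of adjacent stages overlapped.

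The forkhead genes that mark paraxial mesoderm more widely gave slopes near 0. Foxc1 had medians of 147, 166, 160, 135 and 142 normalized counts from 5 to 9 pairs, with all embryos between 56.5 and 242, and a slope of 0.01 (95% confidence interval -0.06 to 0.08, adjusted p = 0.849). Foxc2 had medians of 67.2, 70.0, 88.1, 62.2 and 66.4, with all embryos between 17.9 and 117, and a slope of 0.03 (-0.06 to 0.11, adjusted p = 0.684). These intervals leave out slopes as large as those fitted for Uncx, Tcf15 and Meox1. Myf5 had at least 1 count in 9 of 24 embryos with 5 pairs, 6 of 10 with 6, 5 of 11 with 7, 9 of 13 with 8 and 6 of 8 with 9, and a count of 0 allows up to 3 counts from counting error alone. Fitted without the filter, its slope was 0.28 (SE 0.125, adjusted p = 0.169).

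Littermates were then compared with each other, since 12 litters, 7 normal and 5 diabetic, held embryos with different somite numbers. Uncx was higher in the embryos with the most pairs than in those with the fewest in 10 of the 12 litters, Meox1 in 9, Tcf15 in 9, Myf5 in 9, Tbx18 in 8, Foxc2 in 6 and Foxc1 in 2. Foxc1 was thus lower in the more advanced littermates in 10 of 12 litters, and in all 7 normal ones. Myf5 was lower in 2 litters and equal in 1, and with 62 counts in 66 embryos its comparisons rest on few molecules. Such litter counts were not made for all genes. With the litter as a replicate block, edgeR called 1 of the 6 members. Uncx kept a slope of 0.38 (adjusted p = 0.00325), whereas the slope of Meox1 became 0.12 (adjusted p = 0.0917), that of Tcf15 0.12 (adjusted p = 0.318) and that of Tbx18 0.06 (adjusted p = 0.654). The slope of Foxc1 became -0.09 (SE 0.032, adjusted p = 0.0504) and that of Foxc2 -0.04 (adjusted p = 0.681). The number of genes called over the whole table fell as well, from 2858 to 1638.

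**Figure D2:**
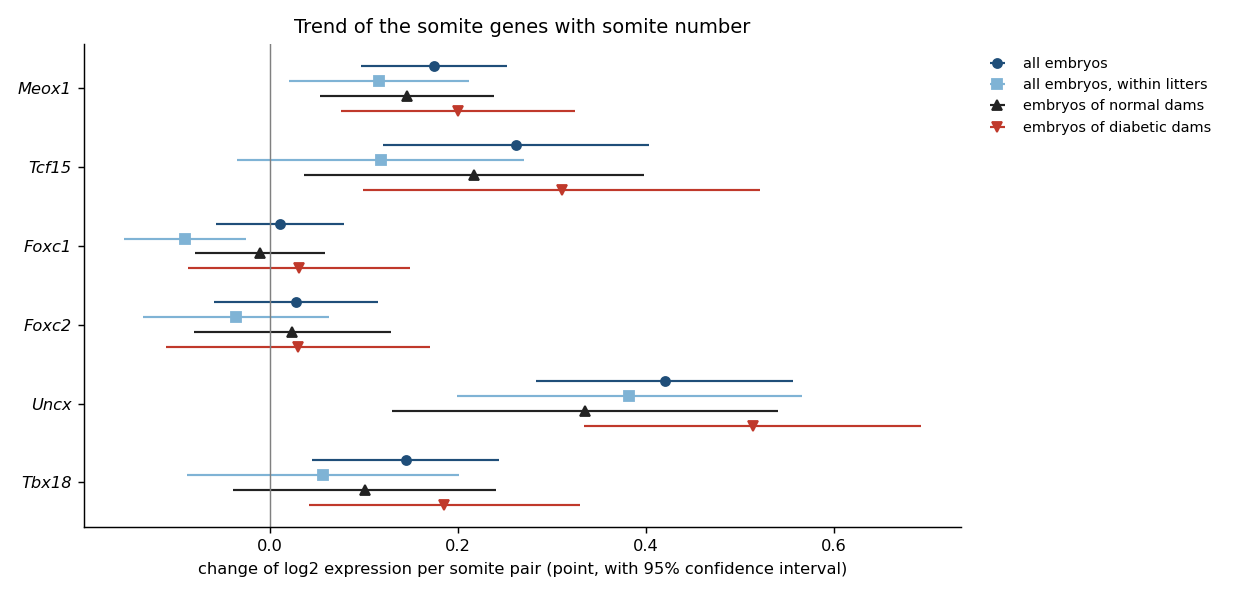
Change of log2 expression per somite pair (x axis, with 95% confidence interval) of 6 genes (y axis) in all 66 embryos, in all embryos with the litter as a replicate block, and in normal and diabetic embryos alone; the values of Uncx within 1 condition were fitted without the filter on low counts. Uncx lies at 0.42 and within litters at 0.38, while Foxc1 goes from 0.01 to -0.09.

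**Figure D3:**
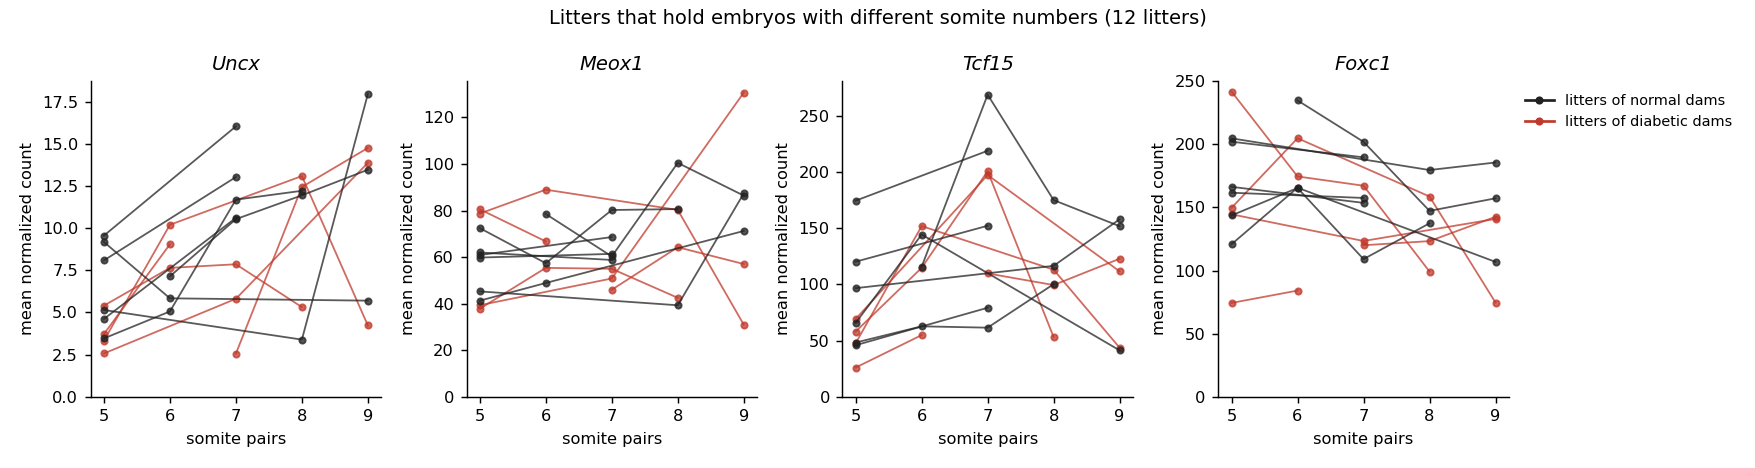
Mean normalized count (y axis) of Uncx, Meox1, Tcf15 and Foxc1 by somite pairs (x axis) in the 12 litters with embryos of several somite numbers, 1 line a litter, black for normal and red for diabetic dams. Most lines of Uncx end above their first point, in 10 of 12 litters, and most lines of Foxc1 below it, also in 10 of 12.

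The slopes of the members were compared with each other by permuting somite numbers within maternal condition (two-sided permutation test on log2 of the normalized count plus 1, 100000 permutations, 15 pairs of members, p adjusted over the pairs). On this scale the slopes were 0.38 for Uncx, 0.30 for Tcf15, 0.18 for Meox1, 0.13 for Tbx18, 0.04 for Foxc2 and 0.02 for Foxc1. Uncx rose more steeply than Foxc1 and Foxc2 (permutation p = 1e-05, the smallest these permutations can give, adjusted 3.75e-05 for both), than Meox1 (p = 0.00069, adjusted 0.00172) and than Tbx18 (p = 0.00197, adjusted 0.00422). Its slope did not differ from that of Tcf15 beyond the spread between embryos (difference 0.08, permutation p = 0.276, adjusted 0.318), and among littermates alone this difference was 0.19 (permutation p = 0.0513, adjusted 0.0769). Tcf15 was steeper than Foxc1 and Foxc2 (permutation p = 1e-05, adjusted 3.75e-05 for both), and so was Meox1 (adjusted p = 0.00172 and 0.0147 by the same permutation test). These differences kept an adjusted p under 0.05 when somite numbers were permuted among littermates alone, with 0.0003, 0.00185, 0.0285 and 0.0302 for Uncx against Foxc1, Foxc2, Meox1 and Tbx18. Tcf15 minus Tbx18 was 0.17 and Foxc1 minus Tbx18 was -0.11 (adjusted p = 0.0357 for both by the same permutation test). Among littermates these differences were 0.06 and -0.14 and did not pass (permutation test, adjusted p = 0.513 and 0.0665).

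No single step between neighbouring somite numbers passed the test for any of the 6 members tested. From 5 to 6 pairs, where edgeR called 1.12% of genes, Uncx went up by 0.67 (SE 0.312) and Tcf15 by 0.59 (SE 0.275), with adjusted p = 0.181 and 0.182. From 6 to 7 pairs (6.93% of genes called), Tcf15 went up by 0.70 (SE 0.321, adjusted p = 0.189). From 7 to 8 and from 8 to 9 pairs, 0% of all genes were called by edgeR and by DESeq2, with 669 and 186 genes at an unadjusted p under 0.05 in edgeR and no member among them. From 7 to 8 pairs Tcf15 changed by -0.44 (SE 0.305, adjusted p = 0.833 by edgeR) and Uncx by 0.18 (SE 0.320). From 8 to 9 pairs the changes were 0.02 for Tcf15 (SE 0.338) and 0.12 for Uncx (SE 0.336). The order of neighbouring stages was therefore not resolved. The trend is a straight line fitted over 5 to 9 pairs and does not show a rise at every step.

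The trend was also fitted within each condition. In the 33 diabetic embryos, where 26% of 10711 genes were called, Meox1 (0.20, adjusted p = 0.0155) and Tcf15 (0.31, adjusted p = 0.0258) rose, and Tbx18 had 0.19 with adjusted p = 0.0502. With the litter as a fixed block neither was called, at 0.10 for Meox1 and 0.11 for Tcf15 (adjusted p = 0.442 and 0.627). Without the litter D28M53 the unblocked adjusted p values were 0.0522 for Meox1 and 0.069 for Tcf15, and without the litter D28M36 that of Meox1 was 0.0841, while without the litter D28M31 Tbx18 was called as well (adjusted p = 0.0344). In the 33 normal embryos, where 3.48% of 10696 genes were called, no member was called by edgeR. Of the 5 members tested, 2 had an unadjusted p under 0.05, as had 20.3% of all genes. DESeq2 called Meox1 (0.15, adjusted p = 0.0437) and 527 genes in all. Uncx, too low for the filter within 1 condition, had slopes of 0.34 in normal and 0.51 in diabetic embryos when fitted without it (adjusted p = 0.101 and 0.000171). The difference between these trends was tested itself as an interaction, which called 1.81% of genes and no member, and DESeq2 called no member either. No member had an unadjusted p under 0.05 in edgeR, against 20.9% of all genes. The differences, diabetic minus normal, were 0.17 for Uncx (95% confidence interval -0.11 to 0.44), 0.09 for Tcf15 (-0.19 to 0.38) and at most 0.08 for the other 4 genes.

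Genes that act around the members were counted by list. Of 6 tested genes of segment borders and polarity, a list that includes 2 members, Uncx and Tbx18 rose and Epha4, an ephrin receptor of somite borders, fell by 0.08 per pair (adjusted p = 0.00151), with a median slope of -0.08. Of 12 genes of the somite epithelium and its matrix, 4 rose, the member Tcf15 among them, and 2 fell, Epha4 again among them. Itga5 (0.29, adjusted p = 0.00039), the fibronectin receptor subunit, and Cdh2 (0.13, adjusted p = 0.000453), the cadherin of epithelial somites, were among those that rose, and Fn1, fibronectin itself, fell by 0.12 (adjusted p = 0.000951). In the presomitic mesoderm list, 3 of 13 rose, among them the Notch feedback gene Nrarp (0.22, adjusted p = 1.16e-05) and the clock gene Lfng (0.13, adjusted p = 0.00479). In the tail bud list, 5 of 12 fell and Fgf17 rose (0.26, adjusted p = 0.0124), with Sp5 at -0.21 (adjusted p = 9.8e-08) and Cdx1 at -0.40 (adjusted p = 1.31e-06). The embryo D24M15J, below all its peers in 8 of 12 tail bud and 8 of 14 presomitic mesoderm genes, is in this fit. Slopes of list genes other than the members were not examined without it.

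The lists of later somite derivatives held fewer measurable genes. Of 5 tested sclerotome genes, Foxc2 included, 1 fell, which was Fst at -0.12 (adjusted p = 0.0119), and none rose. Of 5 tested dermomyotome and muscle genes, Met (-0.13, adjusted p = 0.00253) and Sim1 (-0.20, adjusted p = 0.0224) fell and none rose. In the list of intermediate and lateral mesoderm, 1 of 11 rose (Bmp4, 0.20, adjusted p = 9.35e-06) and 1 fell (Foxf1, -0.11, adjusted p = 0.00846), and in that of cranial mesenchyme and neural crest 2 of 11 rose (Tfap2b, 0.37, adjusted p = 3.67e-08, and Sox10, 0.36, adjusted p = 4.74e-06) and 1 fell (Foxd3, -0.26, adjusted p = 3.19e-06).

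Markers of other tissues moved with somite number too. All 3 tested primitive erythroid genes rose, with Hba-x at 1.41 and Hbb-y at 1.44 per pair (adjusted p = 1.71e-10 and 8.96e-10), and the summed level of the 5 erythroid genes went from 0.998 to 65.8 CPM at 5 to 6 pairs to 8.44 to 2069 CPM at 7 to 9 pairs. Of 10 cardiac genes, 8 rose, led by Nppa (0.65, adjusted p = 2.99e-07) and Myl4 (0.26, adjusted p = 2.36e-05), with a summed level of 84.5 to 1167 CPM before and 622 to 1536 CPM after. Of the neural genes, 4 of 9 rose, such as Pax6 (0.20, adjusted p = 2.21e-05) and Irx3 (0.13, adjusted p = 0.000891), and Sox2 fell by 0.09 (adjusted p = 0.00246). Of 10 endothelial genes, Emcn rose (0.19, adjusted p = 0.00283) and Sox17 fell (-0.20, adjusted p = 0.00223), and of 9 visceral endoderm genes Amn fell (-0.29, adjusted p = 0.0168). The part of these tissues in the slopes of the somite genes was not tested.

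Maternal diabetes was compared at equal somite number in the same 66 embryos, diabetic against normal. No member was called by edgeR or by DESeq2, where 3.76% of 11304 genes were called, and 1 member, Foxc1, had an unadjusted p under 0.05, as had 19.5% of all genes. The median difference was -0.16 on the log2 scale over the 6 members and -0.0022 over all genes. Without the embryo D24M15J no member was called either.

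Foxc1 had lowest, median and highest values of 111, 157 and 235 normalized counts in 17 normal and 56.5, 145 and 242 in 17 diabetic embryos with 5 to 6 pairs. With 7 to 9 pairs the values were 107, 164 and 202 in 16 normal and 74.6, 133 and 203 in 16 diabetic embryos. The groups overlapped almost wholly at their upper ends, while the lowest values came from diabetic embryos. The difference was -0.24 (95% confidence interval -0.44 to -0.05, p = 0.0154 and adjusted p = 0.146 by edgeR). Over all embryos, Foxc1 was also the member with the highest correlation between littermates, 0.66 as estimated by limma against 0.17 over all genes. Tcf15 followed at 0.49, Foxc2 at 0.36 and Meox1 at 0.21, with Tbx18 at -0.09 and Uncx at -0.11. Fitted at 5 to 6 pairs alone, the correlations were 0.81 for Foxc1, 0.50 for Meox1, 0.49 for Tcf15 and 0.41 for Foxc2. At 7 to 9 pairs alone they were -0.09 for Foxc1, -0.15 for Meox1, 0.18 for Tcf15 and -0.16 for Foxc2. The likeness of littermates in Foxc1 was thus seen at 5 to 6 pairs and not at 7 to 9. With the litter as a random block the difference of Foxc1 was -0.36 (limma, p = 0.00365, adjusted p = 0.157). That fit used the correlation of 0.17 for every gene, not the 0.66 of Foxc1. Its p-value therefore does not allow for the full likeness of littermates in Foxc1.

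Tcf15 was at 22.3, 69.1 and 175 normalized counts in normal and 5.87, 54.9 and 152 in diabetic embryos with 5 to 6 pairs, and at 41.3, 124 and 269 against 43.7, 111 and 200.8 with 7 to 9 pairs. The difference of -0.34 had a 95% confidence interval of -0.73 to 0.05 (adjusted p = 0.331), and without 1 litter at a time it ranged from -0.48 to -0.20. The 3 lowest embryos in Tcf15 were diabetic ones with 5 pairs, at 5.87 and 17.2 normalized counts in the 2 embryos of litter D28M37 and 9.64 in the single embryo of litter D28M27, and the same 3 were the lowest in Foxc1, at 62.8, 56.5 and 56.5. The remaining differences were -0.21 for Uncx (-0.61 to 0.18), -0.11 for Meox1 (-0.34 to 0.11), -0.08 for Foxc2 (-0.32 to 0.17) and 0.04 for Tbx18 (-0.25 to 0.32). Without 1 litter at a time Uncx ranged from -0.30 to -0.10, Meox1 from -0.20 to -0.05 and Foxc2 from -0.14 to -0.01. At 5 to 6 pairs and at 7 to 9 pairs fitted alone, where 1.46% and 9.09% of genes were called, no member was called. No member had an unadjusted p under 0.05 in edgeR, against 21% and 27.4% of all genes. DESeq2 called none in these groups either.

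**Figure D4:**
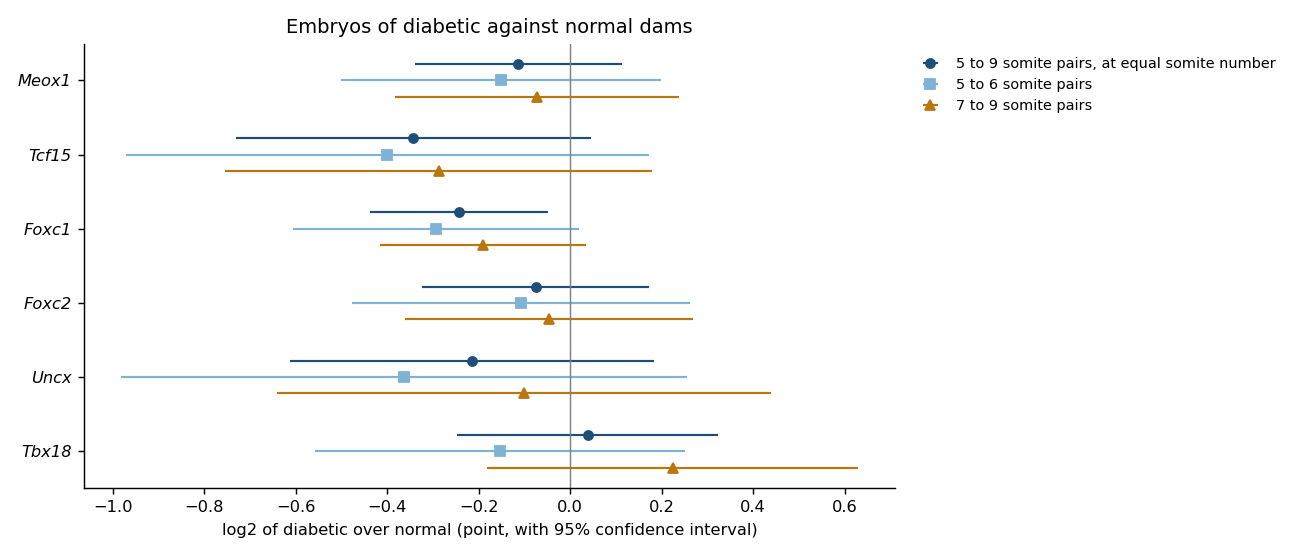
Log2 of diabetic over normal (x axis, with 95% confidence interval) for 6 genes (y axis) at equal somite number in all 66 embryos, in 34 embryos with 5 to 6 and in 32 with 7 to 9 somite pairs; the value of Uncx at 5 to 6 pairs was fitted without the filter on low counts. The interval of Foxc1 in all embryos, -0.44 to -0.05, leaves out 0, and the other 5 intervals over all embryos include it. All intervals treat littermates as separate replicates.

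In the lists around the members, Fn1 (-0.27, adjusted p = 0.0288) and the neural gene Sox2 (-0.24, adjusted p = 0.0273) were called for diabetes at equal somite number, both lower in diabetic embryos. With the litter as a random block neither passed (limma, -0.31 with adjusted p = 0.0993 for Fn1 and -0.26 with adjusted p = 0.115 for Sox2), and the calls over all genes went from 425 to 81. In the lists of presomitic mesoderm, segment borders, sclerotome, dermomyotome and tail bud none of the 13, 6, 5, 5 and 12 tested genes was called at equal somite number. At 7 to 9 pairs alone, where 9.09% of all genes were called, 1 of 13 presomitic mesoderm genes was called. It was the protocadherin gene Pcdh19 (-0.83, adjusted p = 0.0107 by edgeR), named here after its value was seen. The embryo D24M15J is in this group, with 28.1 normalized counts of Pcdh19 against 62.0 to 277 in its 8 peers. This comparison was not fitted without that embryo alone. With the litter as a random block the calls over all genes at 7 to 9 pairs went from 966 to 314. The summed cardiac markers were at 84.5 to 1048 CPM in diabetic and 353 to 1167 CPM in normal embryos with 5 to 6 pairs. With 7 to 9 pairs they were at 903 to 1536 CPM in diabetic and 622 to 1165 CPM in normal embryos, and 3 of 10 cardiac genes were called higher there, and their part in the differences of the members was not tested.

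The yolk sacs of the same 66 concepti gave the level in a tissue outside the embryo, not that in embryo cells outside the somites. Meox1, Tcf15, Foxc1, Foxc2 and Tbx18 passed the filter on low counts here through the embryos, where they are high, so that their number among the called genes is no result. Over the 11690 genes tested, 86.1% differed and 45.5% were higher in the embryo. Meox1 was at 4.90 to 53.6 CPM in embryos and at 0 to 1.249 CPM in yolk sacs, 40 of which had no count, and Foxc1 at 22.5 to 96.5 CPM against 0 to 4.46 CPM. The differences with the conceptus as a block were 6.53 for Meox1, 5.56 for Foxc1, 4.54 for Foxc2, 4.00 for Tcf15 and 2.64 for Tbx18 on the log2 scale. For Meox1, Tcf15, Foxc1 and Foxc2 the embryo was higher in all 66 concepti and for Tbx18 in 65. The labels give embryo and yolk sac different sexes for the concepti D28M27C and N28M07E, and the reason was not tested. Tcf15 had 331 counts in the yolk sacs, and 2 of the 66 yolk sac libraries had none. Uncx had 570 counts in the embryos and 4 in the yolk sacs, and Myf5 62 and 1, and both stayed below the filter in this comparison.

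Embryos of equal stage and condition differed in several of these genes together. The likeness of 2 genes was described by Pearson's r of log2(CPM + 1) over the 66 embryos after removal of the mean of each somite number and condition. Tcf15, Foxc1 and Foxc2 had the highest r among the members, with r = 0.83 for Tcf15 and Foxc2, 0.78 for Tcf15 and Foxc1 and 0.78 for Foxc1 and Foxc2. Among 11302 genes, Foxc2 was the nearest to Tcf15, and Tcf15 was the nearest to both forkhead genes. The next genes were Smoc1, which encodes a secreted matrix protein, for Tcf15 (r = 0.81), Ttc28 for Foxc1 (r = 0.75) and Zcchc24 for Foxc2 (r = 0.74).

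Meox1 and Uncx were paired with each other. Uncx was the second nearest gene to Meox1 (r = 0.54) and Meox1 the nearest to Uncx, ahead of Ankle1 (r = 0.49) and Tcf15 (r = 0.47). The nearest gene to Meox1 was Aldh1a2 (r = 0.60), whose product makes retinoic acid in somites and other mesoderm, and the third Wdr78 (r = 0.53). Tbx18 was nearest to Prkd2 (r = 0.53), Sec22c (r = 0.53) and Flt4 (r = 0.51), and its r with Uncx, its counterpart in the other part of the somite, was 0.16. The points of each correlation share their library and many share a litter, and Foxc1, Tcf15 and Foxc2 are also the members most alike between littermates, as given above. The members' r with the log2 total count of the library was 0.12 to 0.26 by the same measure. Counting error alone gave a coefficient of variation of 34.03% for Uncx and 31.4% for Tbx18, and its part in their lower r was not tested.

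**Figure D5:**
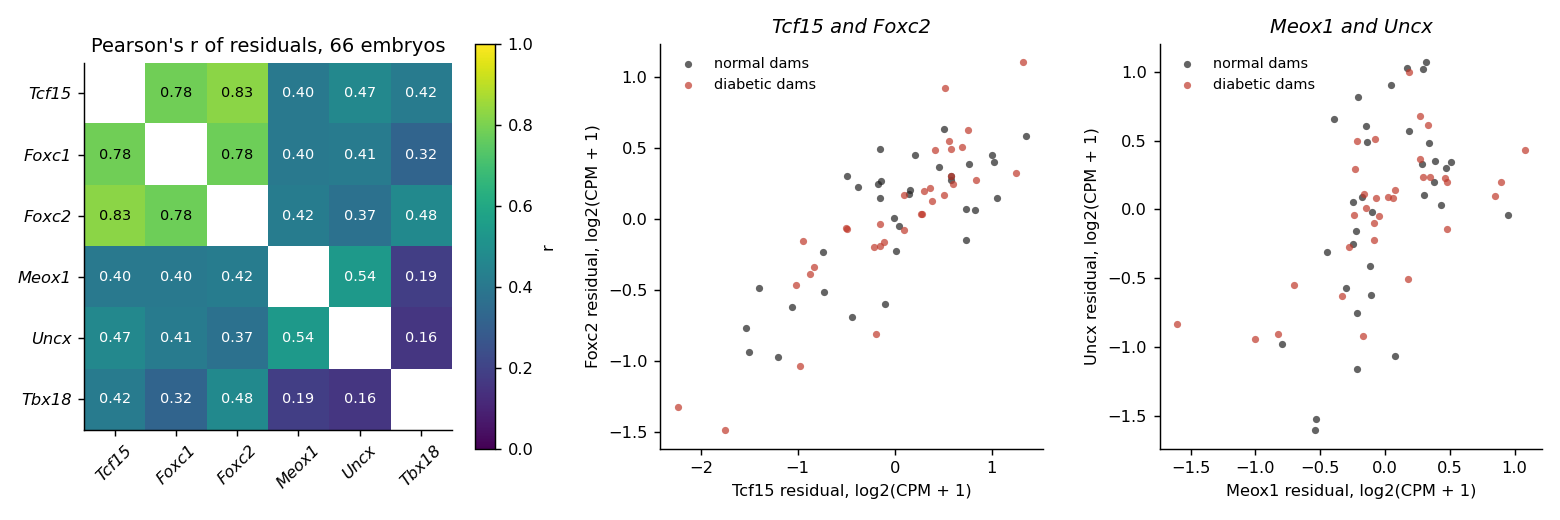
Pearson's r between 6 genes after removal of the means of each somite number and condition (left, colour and number), and the residuals of log2(CPM + 1) in 66 embryos for Tcf15 against Foxc2 (middle) and Meox1 against Uncx (right), black for normal and red for diabetic pregnancies. The block of Tcf15, Foxc1 and Foxc2 has r of 0.78 to 0.83, and Meox1 with Uncx 0.54.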

How the data were processed

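Embryos and yolk sacs of single NOD concepti were sequenced by the authors as 3′ libraries with unique molecular identifiers (QuantSeq FWD). Per the labels, reads were aligned to mm10 with STAR and counted per gene with HTSeq, whose versions are not given in the sources used here. The deposited values are whole-number counts of 47643 genes in 136 libraries, with no normalization. Symbols come from the deposited table. From these counts, gene models from GENCODE and promoter windows from RefSeq (GRCm38.p6) gave positions and sequence.

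Genes were filtered with filterByExpr (minimum count 10), normalized by TMM and tested with glmQLFit and glmQLFTest in edgeR 4.0.16 under R 4.3.3. An adjusted p under 0.05 (Benjamini-Hochberg over all genes of a fit) was a call. Somite number and maternal condition were terms of 1 fit over 66 embryos, and fits within a condition or stage group used those embryos alone. Normalized counts used size factors of DESeq2 1.42.0 over the 66 embryos. Litter correlations came from duplicateCorrelation in limma 3.58.1. Replicates are separate embryos, and since littermates share a dam, p-values over embryos measure the spread between embryos, not between dams. The 4 repeat libraries were left out of the tests. Same-numbered titles do not pair diabetic with normal embryos, which share no dam, and the pairing of littermates comes from the dam named in each title. Scripts were tested on simulated counts.

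The members, gene lists and tests were chosen with earlier results of these data known. The genes named are the 7 members, of each other list up to 2 genes in each direction with the smallest adjusted p among those called for somite number, list genes called for diabetes, and the 3 genes most correlated with each member. One result that this rule would name is not reported here. The alternatives were size factors by RLE, no filter, DESeq2's Wald test, sex or the 2-digit title number as a covariate, somite number as a factor, litter as a random or fixed block, counts summed per litter, repeat libraries added to their originals, no conceptus block, a pseudocount of 0.5, and each litter left out in turn. The comparison of slopes, its version among littermates and the fits without D24M15J were chosen after seeing the data.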

Additional observations from a re-analysis of the deposited data

How the results depend on the processing

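With the litter as a replicate block, the somite trend called 1 of 6 members in place of 4 (Uncx), and the trend in diabetic embryos called 0 in place of 2. Normal and diabetic embryos share no dam, so this pairing holds among littermates alone. In normal embryos 1 member (Meox1) was called in place of 0 with DESeq2, with the title number as a covariate and with litter as a random block. Over all genes these settings called 527, 1483 and 754 in place of 372. The cause of these changes was not tested. Leaving out 1 litter at a time gave 3 to 4 members called in the somite trend and 0 to 3 in diabetic embryos, and 0 in the comparisons of diabetic with normal embryos.

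Values that changed sign were mostly near 0. With the litter block the somite slope became -0.090 for Foxc1 and -0.036 for Foxc2, that of Foxc2 in normal embryos -0.010, those in diabetic embryos -0.11 for Foxc1 and -0.084 for Foxc2, and the interaction -0.026 for Meox1, -0.022 for Tcf15, -0.030 for Foxc1, -0.077 for Foxc2 and -0.049 for Tbx18. With litter as a random block the slope of Foxc1 was -0.0017, the diabetic difference of Tbx18 -0.031 and that of Uncx at 7 to 9 pairs 0.068. The interaction of Foxc2 was -0.0023 by DESeq2, -0.0018 with sex and -0.0030 with the title number. The difference of Meox1 at 7 to 9 pairs was 0.034 with counts summed per litter, its step from 6 to 7 pairs 0.0014 with RLE size factors, and its slope minus that of Tcf15 0.00029 among littermates. Without 1 litter at a time, the slope of Foxc1 ranged from -0.0062 to 0.031, in normal embryos from -0.032 to 0.0015 and in diabetic embryos from -0.0098 to 0.073, and that of Foxc2 in diabetic embryos from -0.015 to 0.059. The interaction ranged from -0.0027 to 0.084 for Foxc1 and from -0.042 to 0.035 for Foxc2, and the diabetic difference from -0.016 to 0.093 for Tbx18 and, at 7 to 9 pairs, from -0.090 to 0.0054 for Foxc2. The slopes of Uncx, Meox1 and Tcf15 stayed called in every such fit, at 0.40 to 0.46, 0.15 to 0.19 and 0.23 to 0.29.

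Counts over all genes moved more. The litter block gave 1638 genes in place of 2858 in the somite trend, 657 in place of 205 in the interaction, 1765 in place of 372 in normal and 686 in place of 2790 in diabetic embryos. The random block gave 81 in place of 425 for diabetes at equal somite number, 4 in place of 161 at 5 to 6 pairs, 314 in place of 966 at 7 to 9 pairs and 754 in normal embryos. Counts summed per litter gave 0 and 8 at 5 to 6 and 7 to 9 pairs. Without a filter there were 796 genes for diabetes, 26 for the interaction, 213 in normal embryos, 291 at 5 to 6 pairs, 28 and 404 in place of 127 and 783 for the steps from 5 to 6 and 6 to 7, and 15331 in place of 10068 between tissues. DESeq2 gave 371 for the interaction, 396 at 5 to 6 pairs and 440 for the step from 5 to 6. The title number gave 1251 for the interaction, 1483 in normal embryos, 324 at 5 to 6 and 1714 at 7 to 9 pairs. Of 27 named genes of the other lists in the somite trend, 26 were called in the same direction with litter as a random and 22 as a fixed block, the 5 lost being Amn, Foxf1, Irx3, Lfng and Met. Counting error limits Uncx, Tbx18 and Myf5 the most.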
